A study of Bos taurus with 12 samples.

Results

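The heme pathway was followed here through 8 genes, ALAD, ALAS1, UROS, UROD, CPOX, PPOX, FECH and HMOX1, in mammary gland (MG) biopsies of early lactation cows. The members were the non-control array probes whose RefSeq accession belongs to these symbols in the bovine RefSeq table, which gave 14 probes of the 43653 on the array and 8 of the 12639 genes that could be named. ALAD was taken because its signal was known to be higher in underfed cows, and the other 7 genes because they act in the same pathway. The members were thus picked on the values of the comparison between diets, and that comparison is described for all of them and supports nothing.

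Heme is an iron porphyrin carried by hemoglobin, mitochondrial cytochromes, catalase and peroxidases. Its synthesis starts in mitochondria, where ALAS1 (ALAS2 in red cell precursors) joins glycine and succinyl-CoA into 5-aminolevulinate. ALAD, a zinc enzyme of the cytosol, condenses aminolevulinate into porphobilinogen, UROS takes part in closing the ring, and UROD trims it. CPOX and PPOX oxidize it on returning to mitochondria, and FECH inserts the iron. HMOX1 opens the ring again, releasing iron, carbon monoxide and biliverdin. In most tissues ALAS1 is regarded as the limiting step, and HMOX1 is known as an enzyme induced by heme, oxidative stress and inflammation, with high activity in macrophages.

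The samples were biopsies of 12 multiparous Holstein cows, studied from 24 ± 3 days in milk, and each biopsy was hybridized to 1 one-color Agilent array. For the 6 REST cows, barley straw supplied 48% of the dry matter of the feed over 4 days. The 6 CONT cows had a lactation diet without added straw, at free intake. All 12 cows received 50 µg of lipopolysaccharide (LPS) in 1 healthy rear gland on day 3 and were biopsied 24 h later, so that no gland without LPS entered the comparison and 1 time point was seen. Cows are numbered 1 to 6 within a group in the order of the sample records. The number is a name only, and it does not pair cows.

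The 75th percentile of the spot intensities was 577.1 to 1184 in CONT and 386.9 to 1082 in REST. Between 57.6 and 78.1% of the probes were well above background, as called by the scanner software. The arrays lay on 3 slides, and each slide held both diets (3 CONT and 1 REST, 1 CONT and 3 REST, 2 and 2). The label of the tissue was checked with markers of mammary epithelium, of which the 10 that could be matched were well above background on all 12 arrays. Signals are given on the log2 scale. A log2 signal is the log2 intensity minus the 75th percentile of the same array, so that negative values lie below that percentile. Levels of different probes are not compared, because probes differ in their response. In a biopsy, fewer cells of a type and less RNA per cell cannot be told apart.

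ALAD signals were higher in REST than in CONT on each of its 3 probes (RefSeq NM_001014895), by 1.66-fold to 1.76-fold. The 3 probes are well above background on all 12 arrays and none is saturated. On the brightest, A_73_P035921, the log2 signal was 2.85 at the lowest, 3.42 at the median and 3.55 at the highest in CONT. In REST the same values were 3.56, 4.03 and 4.48. The groups did not overlap, but the lowest REST cow, REST 1, exceeded the highest CONT cow, CONT 3, by only 0.0047 on the log2 scale. The log2 signal averaged 3.30 ± 0.27 (SD, n = 6) for CONT cows and 4.03 ± 0.37 (SD, n = 6) for REST cows. The difference, REST minus CONT throughout, was 0.73 with a standard error of 0.20.

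The other ALAD probes showed wider gaps between the groups. Probe A_73_P251851 had log2 signals of -0.63 to 0.14 (median -0.15) among CONT cows and of 0.30 to 1.13 (median 0.52) among REST cows. REST exceeded CONT by 0.81 (standard error 0.19), and the gap between the groups was 0.16. Probe A_73_P451091 had log2 signals of -1.35 to -0.72 (median -0.77) among CONT cows and of -0.61 to 0.45 (median -0.24) among REST cows. REST exceeded CONT by 0.74 (standard error 0.21), and the gap was 0.11. REST 2 was the highest cow and CONT 5 the lowest on all of these probes. After each diet mean was subtracted, the probes followed each other across the 12 cows with r of 0.80 to 0.94, which describes readings of the same RNA and is no replication.

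**Figure D1:**
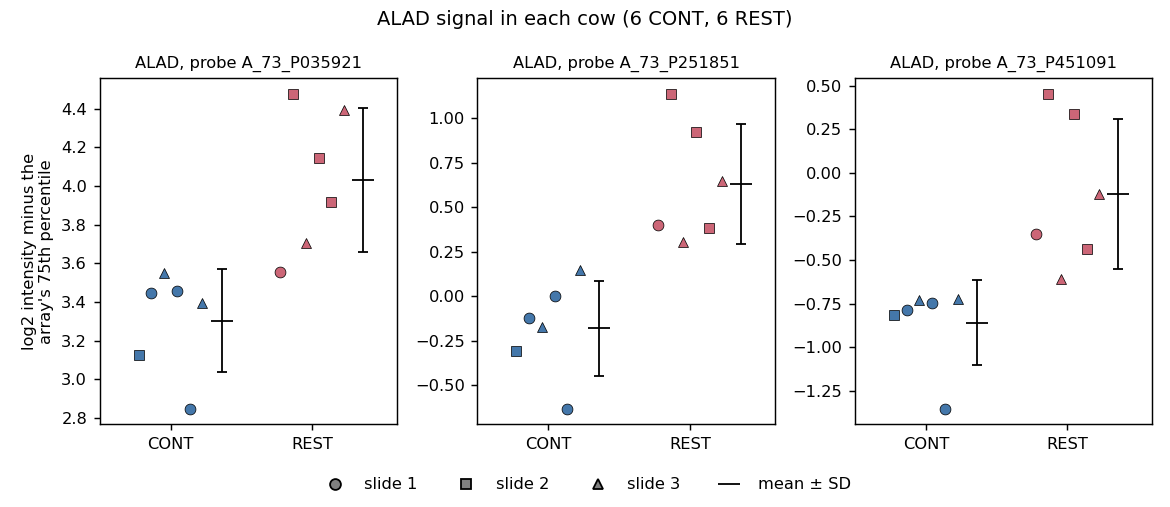
Log2 intensity minus the array's 75th percentile (y axis) of the 3 ALAD probes in 6 CONT and 6 REST cows (x axis). Symbols give the slide, and the bars give the mean ± SD. The REST cows lie above the CONT cows in each panel, with the narrowest gap, 0.0047, on the brightest probe.

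Within the slides the brightest ALAD probe was higher in REST by 0.31 (3 CONT, 1 REST), by 1.05 (1 CONT, 3 REST) and by 0.58 (2 and 2). Its log2 difference was 0.64 (standard error 0.22) with slide as a block. As the groups did not overlap on this probe, the direction within each slide was given beforehand, and only the size could differ. Leaving out 1 cow at a time gave 0.64 to 0.82, the lowest without CONT 5 and the highest without REST 1.

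Across all 43653 probes, limma's moderated test with the Westfall-Young adjustment that the study's methods name called 0%, and with the Benjamini-Hochberg adjustment also 0%. None of the 14 heme probes was called by either. The study itself lists ALAD as differentially expressed, higher in REST, after a Westfall-Young correction run in other software. Why the calls differ was not tested. At an unadjusted p under 0.05 stood 3 of the 14 probes, the 3 of ALAD, beside 2.62% of all probes, 1.74% being higher in REST. The groups did not overlap in the same 3 probes, beside 0.128% of all probes, 0.0733% having REST above CONT. Both counts restate the value for which ALAD was taken.

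ALAS1 (NM_001101154), which makes the substrate of ALAD, had log2 signals of 2.78 to 4.09 (median 3.34) among CONT cows and of 2.31 to 3.60 (median 3.25) among REST cows on its brightest probe. The groups overlapped widely, and no REST cow exceeded the CONT range while REST 2 and REST 5 lay below it. The log2 difference was -0.31 (95% interval -0.91 to 0.29), and the dimmer probe, which followed the first with r of 0.99 within the diets, gave -0.19 (-0.87 to 0.50). Within slides 1, 2 and 3 the brightest probe gave 0.19, -0.37 and -0.18. It was -0.13 with slide as a block, and -0.16 (without REST 2) to -0.43 (without CONT 3) with single cows left out. In the fit without slide, a higher ALAS1 level in REST by more than 1.22-fold on the brightest probe lay outside the interval. On the dimmer probe this limit was 1.41-fold. With slide as a block the standard error on the brightest probe was 0.29, and no limit is given for that fit.

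The erythroid isoform ALAS2 (NM_001035103) was on none of the 12 arrays well above background, so no fold is given.

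UROS (NM_001191369), which closes the ring, varied much more between cows than between diets. Its log2 signal was 0.0078 to 2.10 (median 0.82) among CONT cows and -0.17 to 2.24 (median 0.40) among REST cows. REST 6, at 2.24, lay far above the other REST cows, whose highest value was 0.50. REST minus CONT was -0.34 (95% interval -1.32 to 0.63), and -0.67 without REST 6. With slide as a block it was -0.15, and within slides 1, 2 and 3 it was -0.77, -1.12 and 1.04. CONT 4, at 2.10, was the highest of its group, and without it the log2 difference was -0.11.

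UROD (NM_001205558), the decarboxylase, was among the steadiest of the members. Its log2 signals were 2.28 to 2.72 (median 2.51) among CONT cows and 2.28 to 2.68 (median 2.50) among REST cows, an almost complete overlap. The log2 difference was 0.013 (95% interval -0.28 to 0.31), so that a difference of more than 1.24-fold in either direction lay outside the interval. With the array median in place of the 75th percentile it was -0.05, and within slides 1, 2 and 3 it was 0.02, -0.14 and 0.18.

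CPOX (NM_001192393), the first of the oxidases, is represented by a dim probe that was well above background on 4 arrays of CONT and 6 of REST. Its log2 signals were -4.88 to -2.56 (median -3.41) among CONT cows and -4.35 to -3.06 (median -3.67) among REST cows. CONT held both the highest and the lowest cow. Between diets the log2 difference was -0.16 (95% interval -0.94 to 0.61), and it changed sign with slide as a block (0.033) and without CONT 5 (0.030). Without CONT 3 it was -0.43. The values within slides 1, 2 and 3 were 0.24, -0.79 and 0.49.

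PPOX (NM_001192426), the next oxidase, had 3 probes, all well above background on all 12 arrays, with log2 differences of -0.07, -0.07 and -0.09. On the brightest probe the log2 signals were 2.29 to 2.58 (median 2.35) among CONT cows and 1.94 to 2.66 (median 2.34) among REST cows, so that REST cows lay on both sides of the CONT range. The 95% interval of that difference was -0.40 to 0.25, and with slide as a block it was -0.17 (-0.41, 0.16 and -0.24 within slides 1, 2 and 3). Without REST 1 the difference was 0.0021, and without REST 5 it was -0.14. The SD was 0.10 in CONT and 0.27 in REST.

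FECH (NM_174054), which inserts the iron, was poorly measured. Its brighter probe was well above background on 2 arrays of CONT and 4 of REST, and the other probe on none, for which no fold is given. The brighter probe had log2 signals of -6.20 to -3.92 (median -5.10) among CONT cows and of -6.19 to -3.65 (median -3.89) among REST cows. While 4 REST cows exceeded every CONT cow, REST 6 was as low as the lowest CONT cow. That gave a log2 difference of 0.76 with a 95% interval of -0.28 to 1.81, and it was 0.14 with normexp background correction, which shrinks dim signals. Within slides 1, 2 and 3 it was 0.64, 2.36 and -0.62, and without REST 6 it was 1.14.

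HMOX1 (NM_001014912), the enzyme of heme breakdown, was clearly measured on all 12 arrays and had the widest spread of the 8 genes. Its log2 signals were 2.18 to 4.33 (median 3.40) among CONT cows and 1.78 to 4.80 (median 3.45) among REST cows. The highest pair of cows (REST 6 and REST 1) and the lowest pair (REST 5 and REST 2) were all REST cows. Its log2 difference was 0.016 (95% interval -1.22 to 1.25), and the interval leaves room for a difference of 2.37-fold. The sign depended on the slide, with REST minus CONT of 1.40, -1.83 and 1.08 within slides 1, 2 and 3, and the estimate was 0.30 with slide as a block. It was -0.27 without REST 6, 0.34 without REST 5 and -0.04 with the array median as the scale.

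**Figure D2:**
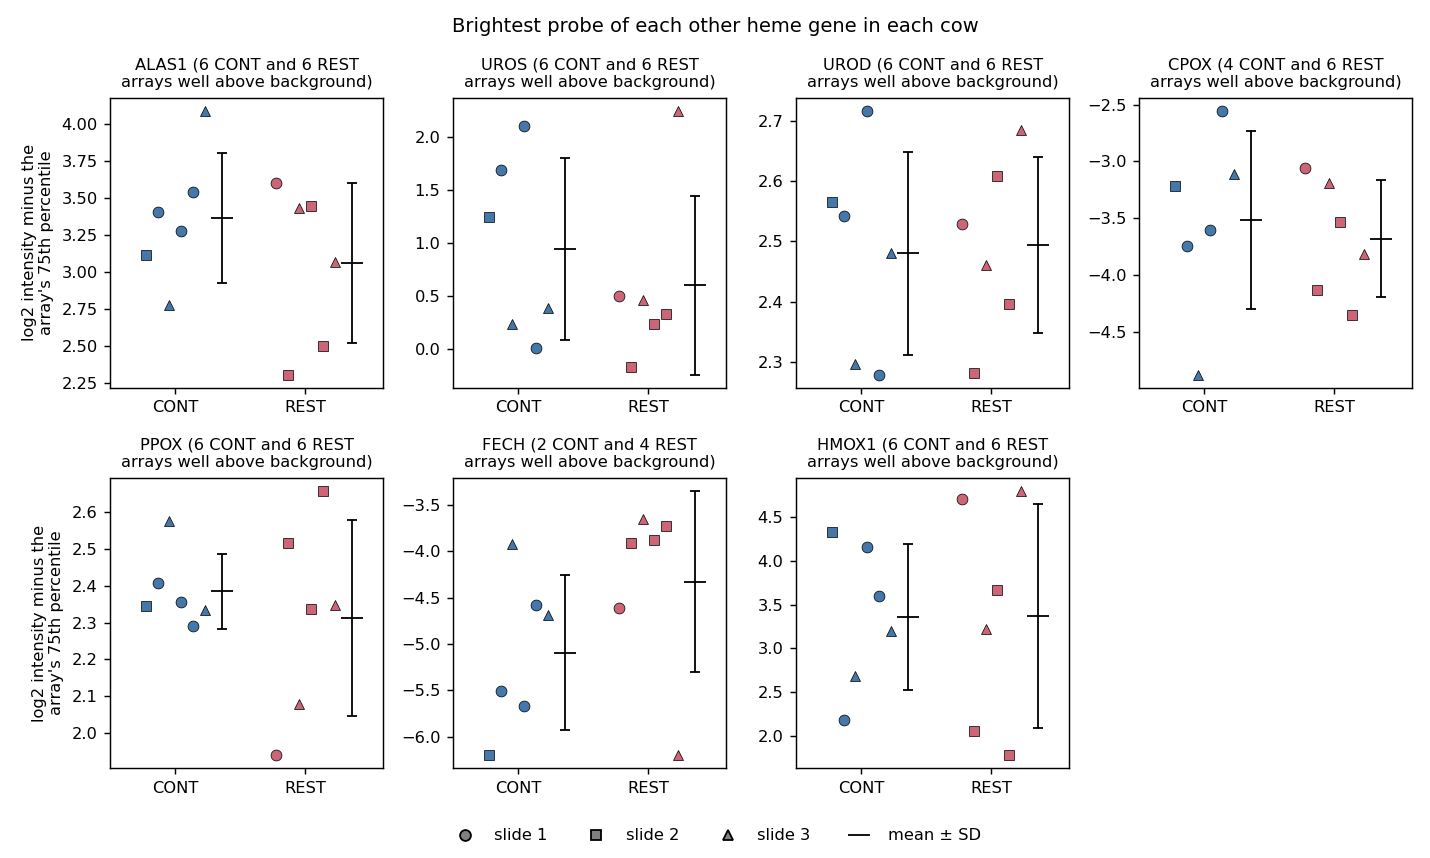
Log2 intensity minus the array's 75th percentile (y axis) of the brightest probe of the other 7 heme genes in 6 CONT and 6 REST cows (x axis), with symbols for the slide and bars for the mean ± SD. The groups overlap for each gene, within 2.28 to 2.72 for UROD and within 1.78 to 4.80 for HMOX1.

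With the brightest probe standing for each gene, 4 of the 8 genes had a higher mean in REST (ALAD, FECH, UROD and HMOX1) and 4 a lower mean, while with the array median as the scale UROD and HMOX1 turned negative and 2 of 8 were higher. Of all named genes, 43.5% had a higher mean in REST. The median difference was -0.030 over the 8 genes (0.035 with slide as a block), -0.072 over the 7 without ALAD and -0.034 over all named genes. With single cows left out, the median over the 8 genes was -0.13 (without CONT 2) to 0.0030 (without REST 5). The difference between ALAD and the other genes was not tested, because ALAD had been chosen for its size.

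**Figure D3:**
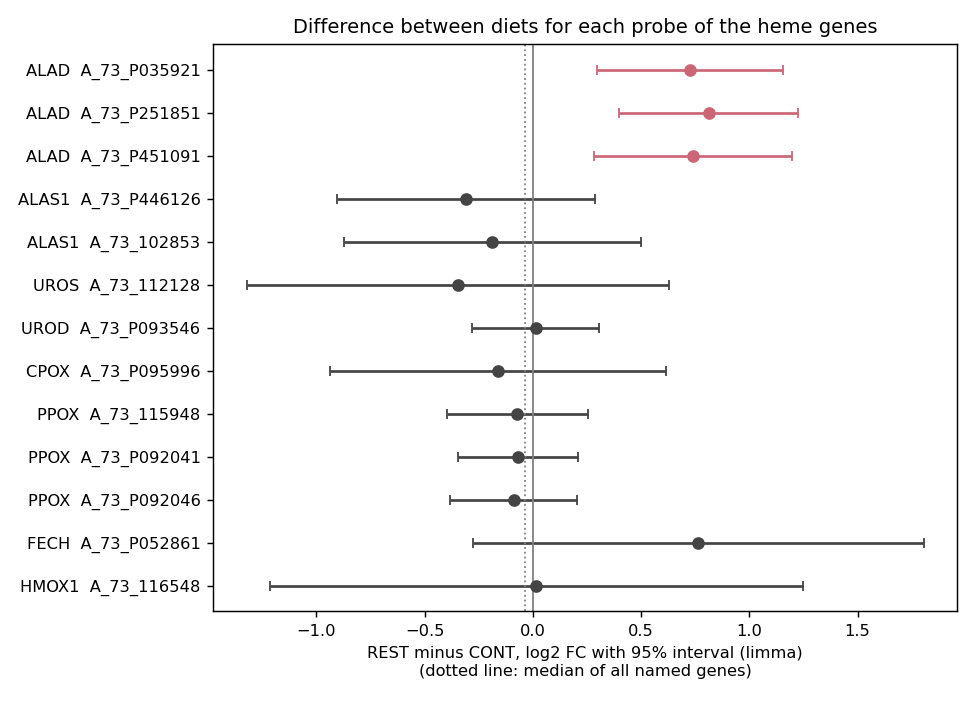
REST minus CONT log2 difference of each heme gene probe (x axis, point) with its 95% interval from limma (bar), ALAD in red. The FECH probe that was well above background on none of the 12 arrays is left out, and the dotted line is the median of all named genes. The intervals of the ALAD probes lie between 0.28 and 1.22, and those of the other probes include 0. ALAD was chosen for this difference, so its intervals are a description, and ALAD was not tested against the other genes.

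The wider pathway was followed with 5 lists of genes, each with its brightest probe. They cover the remaining genes of heme synthesis and assembly, heme breakdown and export, iron handling, heme proteins, and regulators with targets of the stress factor NRF2. In none of them was a gene called by limma with the Westfall-Young or the Benjamini-Hochberg adjustment. At an unadjusted p under 0.05, 2.64% of all named genes were found, 1.63% higher and 1.01% lower in REST. With slide as a block the list medians were -0.06, 0.04, 0.14, 0.04 and 0.14 in this order, so that the signs of the last 4 medians given below turned.

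Of 28 genes of heme synthesis and assembly, 25 were matched, 7 had a higher and 18 a lower mean in REST, and the median difference was -0.09. A single gene stood under an unadjusted p of 0.05, lower in REST. It was PGRMC1 (NM_001075133), a heme binding membrane protein known to associate with FECH. Its log2 signals were 3.21 to 3.86 (median 3.35) among CONT cows and 2.76 to 3.33 (median 2.99) among REST cows, so that the groups overlapped in part. The log2 difference was -0.42 (standard error 0.16), and with slide as a block -0.41 (standard error 0.18), just outside that p (0.0502 by limma). The largest positive value among well measured genes was that of SHMT2 (0.13, standard error 0.16), the mitochondrial enzyme that makes glycine.

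Of 15 genes of heme breakdown and export, 13 were matched, 4 with a higher mean in REST (median difference -0.06). HEBP1 (NM_001075985), a cytosolic heme binding protein, was the only gene under an unadjusted p of 0.05. Its log2 signals were 1.98 to 2.45 (median 2.20) among CONT cows and 2.23 to 2.76 (median 2.59) among REST cows, and all 6 REST cows lay above the CONT mean (log2 difference 0.32, standard error 0.15). It was 0.25 (standard error 0.16) with slide as a block, no longer under that p. CD163, the macrophage receptor for hemoglobin bound to haptoglobin, which is also in the macrophage list below, had a log2 difference of 0.85 (standard error 0.41), and of 1.09 (standard error 0.43) with slide as a block, then under that p. Haptoglobin itself, HP, differed by -0.69 (standard error 1.37), with REST cows spread from -3.51 to 5.48.

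Of 20 genes of iron handling, 16 were matched, 7 with a higher mean in REST (median difference -0.01). ACO1 (NM_001075591), a cytosolic aconitase that becomes an iron sensing RNA binding protein, had an unadjusted p under 0.05. Its log2 signals were -1.20 to -0.06 (median -0.64) among CONT cows and -0.81 to 0.43 (median 0.11) among REST cows, a log2 difference of 0.55 (standard error 0.25). With slide as a block it was 0.35 (standard error 0.26), no longer under that p. Transferrin, TF, had the lowest value among well measured genes, -0.28 (standard error 0.41).

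Of 30 genes of heme proteins, 25 were matched, 10 with a higher mean in REST (median difference -0.02). CYGB (NM_001206720), a globin of fibroblast-like cells, and PTGS2 (NM_174445), the inducible cyclooxygenase, had an unadjusted p under 0.05. The log2 signals of CYGB were -1.95 to -0.92 (median -1.36) among CONT cows and -1.62 to 0.54 (median -0.50) among REST cows, with a mean higher in REST by 0.73 (standard error 0.33). PTGS2 had log2 signals of -4.07 to -2.55 (median -3.41) among CONT cows and of -5.02 to -3.41 (median -4.11) among REST cows. REST minus CONT was -0.80 (standard error 0.29), and the probe passed the background call on 6 CONT and 5 REST arrays. With slide as a block PTGS2 was at -0.48 (standard error 0.24), no longer under that p, and CYGB at 0.82 (standard error 0.32), under it. IDO1, the heme enzyme that opens the ring of tryptophan, had a log2 difference of 0.74 (standard error 0.45). Of the 20 regulators and NRF2 targets, 18 were matched, 9 with a higher and 9 with a lower mean in REST (median difference -0.0014). None had an unadjusted p under 0.05, and with slide as a block 1 did, GATA1, which was well above background on no array and is also in the red cell list. The extremes among well measured genes were PPARGC1A (0.58, standard error 0.52), a coactivator known to raise ALAS1 transcription in fasted liver, and the erythroid and myeloid factor NFE2 (-0.40, standard error 0.80).

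Markers of cell types that could contribute heme pathway RNA were read on the same arrays. Of 17 red cell genes 14 were matched, and 6 of them (among which ALAS2, RHAG, KLF1, GATA1 and CA1) were well above background on none of the arrays, with ALAS2, KLF1 and GATA1 also being in the pathway lists. Of the 14, 9 had a higher mean in REST, beside 43.5% of all named genes. The median difference was 0.11, and 0.14 with slide as a block. The alpha globin gene HBA was well above background on all 12 arrays, with a log2 difference of 0.13 (standard error 0.38). GYPC (0.17, standard error 0.22) and HBG (-0.11, standard error 0.42) were the extremes among well measured red cell genes. The summed linear signal of the list, in multiples of the 75th percentile, was 10.1 to 25.0 in CONT and 13.0 to 33.5 in REST. Within the diets, ALAD had an r of -0.03 and a rho of -0.0070 with the mean of this list (permutation tests, p = 0.931 and 0.991), and an r of 0.55 when slide means were also subtracted. That mean includes the 6 genes well above background on no array, so these r rest in part on background readings.

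Of 8 fibroblast genes, 7 had a lower mean in REST, with a median difference of -0.63. Of all named genes, 43.5% had a higher mean in REST. At an unadjusted p under 0.05 by limma stood 4 of the 8, beside 2.64% of all named genes, 1.01% being lower in REST. The 4 were FN1 (log2 difference -0.94, standard error 0.35), LUM (-0.84, standard error 0.24), COL1A1 (-0.72, standard error 0.31) and COL1A2 (-0.65, standard error 0.27). They encode matrix proteins, and none was called after adjustment. With slide as a block the median was -0.35 and LUM alone kept an unadjusted p under 0.05 (-0.83), with FN1 at -0.62, COL1A1 at -0.39 and COL1A2 at -0.45. PDGFRA had the only positive value (0.036, standard error 0.36). The summed linear signal of the list was 58.6 to 77.5 in CONT and 27.0 to 82.2 in REST. Within the diets, cows with higher fibroblast means had lower ALAD signals (r = -0.76, rho = -0.79, permutation tests, p = 0.00775 and 0.00756). Over the 7 comparisons of ALAD with marker lists and array intensity, the adjusted p was 0.0542 for r and 0.0529 for rho, above the threshold. The r was -0.69 without the 2 cows farthest from the ALAD median (REST 6 and REST 2), -0.80 with slide means also subtracted, -0.75 within CONT and -0.83 within REST. The part of this in the difference of ALAD between diets was not tested.

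Of 8 adipocyte genes 7 were matched, 6 with a higher mean in REST, beside 43.5% of all named genes. The median difference was 0.37, and FABP4 led (1.20, standard error 0.62). The summed signal of this list was 9.71 to 170 in CONT and 104 to 252 in REST, and 3 of its genes were well above background on all 12 arrays. Without FABP4 the sum was 2.42 to 6.09 in CONT and 3.74 to 9.41 in REST. The mammary epithelium list had a median difference of 0.20, with 8 of 10 genes higher, beside the same 43.5%. It ran from KRT18 (-0.49, standard error 0.56) to KRT19 (0.48, standard error 0.30). Its summed signal was 1450 to 3795 in CONT and 1793 to 5162 in REST. ALAD showed r of 0.25 and 0.24 with the means of these lists within the diets (rho = 0.51 and 0.29, permutation tests, p = 0.398 and 0.49 for r), and of 0.56 and 0.17 with slide means also subtracted. For the epithelium list r was -0.49 within CONT, 0.65 within REST and -0.25 with quantile normalization, and for the adipocyte list 0.08 within CONT and 0.63 within REST. The array's 75th percentile, which was lower in REST (median 652.6) than in CONT (median 837.4), had an r of -0.41 with ALAD (rho = -0.37, permutation test, p = 0.237 for r). The parts of these in the ALAD difference were not tested.

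Differences between cows of the same diet were not used to choose the genes and could be tested. Each gene's diet mean was subtracted, cows were shuffled within diets, and p-values were adjusted over the 7 partners of ALAD by the Benjamini-Hochberg method. None passed 0.05. The lowest p were those of CPOX, with r of -0.67 and rho of -0.77 (permutation tests, p = 0.0157 and 0.00738, adjusted 0.11 and 0.0509), and PPOX, with r of 0.63 and rho of 0.75 (permutation tests, p = 0.0633 and 0.0145, adjusted 0.222 and 0.0509). With the 2 cows farthest from the ALAD median left out, r was -0.72 and 0.59. Without REST 5, however, both passed for r (-0.77 for CPOX and 0.88 for PPOX). The r of CPOX was -0.43 with normexp, and that of PPOX was 0.46 without REST 1 and 0.31 with the mean over all probes of each gene. For ALAS1, r was -0.45 and rho -0.57 (permutation tests, p = 0.175 and 0.0815, adjusted 0.408 and 0.19), and UROS, UROD, FECH and HMOX1 had r of -0.27 to 0.28 (rho of -0.22 to 0.11). With single cows left out, r was -0.59 to -0.27 for ALAS1, 0.03 to 0.52 for UROS and -0.10 to 0.46 for UROD. It was -0.32 to 0.19 for FECH and -0.55 to -0.07 for HMOX1, so that UROD and FECH changed sign. With array intensity removed, the r with ALAD were -0.59 for CPOX, 0.54 for PPOX, -0.22 for ALAS1, 0.55 for UROS, 0.48 for UROD, -0.42 for FECH and -0.05 for HMOX1, and these were not tested. For scale, the r of ALAD with 8999 other well measured genes had a median of 0.0033, with 10% of the genes below -0.52 and 10% above 0.54.

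The genes whose pattern within the diets was most like that of ALAD over the 12 cows were HSDL2 (r = 0.91), RPL35 (0.89), MCM5 (0.88), GABARAPL2 (0.87) and PDK2 (0.87). They are the highest of 8999 values, chosen for their r, and no p is given. Their log2 differences between diets were small, from -0.03 for PDK2 to 0.23 for HSDL2, and with the diet means left in r was 0.51 to 0.83. Among the members, PPOX ranked 425 and ALAS1 7686 in the same order.

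Among the other 7 genes, 21 pairs were compared, and 6 passed an adjusted p of 0.05 for both r and rho. CPOX and PPOX, which act in sequence, ran in opposite directions (r = -0.79, rho = -0.92, permutation tests, p = 1e-05 for both, the smallest that the resamples can give, and adjusted 0.00021). The r of this pair was -0.97 within CONT and -0.98 within REST, and -0.92 without the 2 cows farthest from the CPOX median. ALAS1 ran with CPOX (r = 0.76, rho = 0.76, permutation test, p = 0.00673 for r, adjusted 0.0289) and against PPOX (r = -0.78, rho = -0.74, permutation test, p = 0.00689 for r, adjusted 0.0289). Without the 2 cows farthest from the ALAS1 median these were 0.71 and -0.58.

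UROS and UROD, consecutive enzymes, varied together (r = 0.84, rho = 0.84, permutation tests, p = 0.00094 and 0.00205, adjusted 0.00987 and 0.0215), and r was 0.74 without the 2 cows farthest from the UROS median. FECH, although dim, ran against UROS (r = -0.86, rho = -0.73, adjusted p = 0.0289 and 0.0487 by permutation) and UROD (r = -0.74, rho = -0.72, adjusted p = 0.0325 and 0.0487 by permutation). Without the 2 cows farthest from the UROS or UROD median these r were -0.73 and -0.78. The FECH probe was well above background on only 2 CONT and 4 REST arrays. Its r with UROS and UROD thus rest in part on background readings and carry no conclusion. Array intensity and background correction were examined beside these relations. The log2 75th percentile correlated within the diets with ALAS1 (r = 0.83, rho = 0.76, permutation tests, adjusted p = 0.0178 and 0.0752) and with PPOX (r = -0.77, rho = -0.69, permutation tests, adjusted p = 0.0413 and 0.107), and for UROS, UROD, CPOX, FECH and HMOX1 the adjusted p of r was 0.0681 to 0.202 (permutation tests). With it removed as well, r was -0.63 for CPOX and PPOX, 0.56 for ALAS1 and CPOX, -0.41 for ALAS1 and PPOX, 0.81 for UROS and UROD, -0.83 for UROS and FECH and -0.66 for UROD and FECH. With normexp, which bears on the dim CPOX and FECH probes, r was -0.48 for CPOX and PPOX, 0.0010 for ALAS1 and CPOX, -0.61 for ALAS1 and PPOX, 0.64 for UROS and UROD, -0.37 for UROS and FECH and -0.81 for UROD and FECH. ALAS1 also had an r of 0.76 with the fibroblast mean (permutation test, p = 0.00304, adjusted over 6 lists 0.0182), but its rho of 0.69 did not pass (adjusted p = 0.144 by permutation), and r was 0.48 without REST 2 and REST 5 and 0.23 with array intensity removed. Many genes share such patterns on these arrays, since 10% of 8999 genes had r above 0.73 with ALAS1 and another 10% below -0.76.

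HMOX1 followed leukocyte markers from cow to cow. Its r with the mean of 9 matched neutrophil genes was 0.88 and rho was 0.96 within the diets (permutation tests, p = 0.00044 and 4e-05, adjusted over 6 marker lists 0.00264 and 0.00024). It was 0.86 in CONT, 0.89 in REST, 0.88 with slide means also subtracted, 0.89 without the 2 cows farthest from the HMOX1 median (REST 6 and REST 5) and 0.85 to 0.92 with single cows left out. Its r with the mean of 6 matched macrophage and monocyte genes was 0.80 and rho 0.84 (permutation tests, p = 0.00482 and 0.00209, adjusted 0.0145 and 0.00627), and r was also 0.80 without the same 2 cows. With array intensity removed, these r were 0.82 and 0.79. For scale, 10% of 8999 genes had r above 0.62 with HMOX1.

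The leukocyte lists themselves overlapped between the diets. Neutrophil genes had a median difference of -0.13, from CXCR1 (-1.03, standard error 0.99) to S100A8 (0.31, standard error 0.94), and a summed signal of 21.5 to 176 in CONT and 8.09 to 196 in REST. Macrophage genes had a median difference of 0.22, from CSF1R (-0.35, standard error 0.39) to MSR1 (1.12, standard error 0.63), and a summed signal of 11.5 to 21.3 in CONT and 11.1 to 28.8 in REST. ALAD had r of -0.38 with the neutrophil and 0.014 with the macrophage list (rho = -0.31 and 0.00, permutation tests, p = 0.295 and 0.972 for r). With single cows left out, r ran from -0.67 (without REST 6) to -0.06 (without REST 2) for the neutrophil list. For the macrophage list it ran from -0.41 (without REST 6) to 0.35 (without REST 2).

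**Figure D4:**
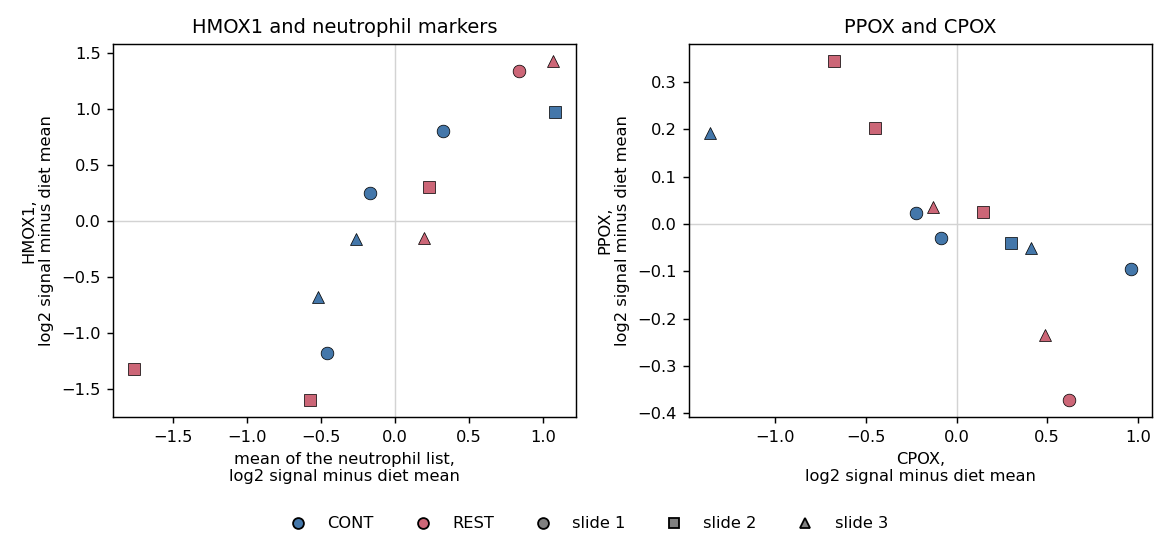
Log2 signals after the mean of each diet was subtracted, for HMOX1 (y axis) against the mean of the neutrophil list (x axis) on the left and PPOX (y axis) against CPOX (x axis) on the right. Each point is a cow, with color for the diet and symbol for the slide. HMOX1 was higher in cows with a higher neutrophil mean (r = 0.88), and PPOX was lower in cows with higher CPOX (r = -0.79).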

How the data were processed

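RNA of 12 MG biopsies (6 CONT, 6 REST) was labeled with Cy3 and hybridized by the authors to one-color Agilent bovine arrays, 1 array per cow. The deposited intensity values came from Feature Extraction 11.0.1.1 (background correction, spatial detrending) and are not normalized between arrays, and the deposited matrix holds the same intensity values (largest difference 0). Of 45220 spots per array, 43803 were not controls. Outlier-marked spots were dropped, each array's 75th percentile was subtracted on the log2 scale, spots of a probe were averaged, and no filter on dim probes was applied. Probes were named by RefSeq accession without version. The array design and the RefSeq table belong to different assemblies, so no positions are given. A gene is represented by its brightest probe on average.

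Diets were compared with limma 3.58.1 (R 4.3.3), two-sided, with the Westfall-Young adjustment that the methods name, run here over 100 of 462 distinct splits of the cows, and with Benjamini-Hochberg. Standard errors and 95% intervals are limma's. Permutation tests of relations used 100000 resamples, two-sided. Procedures were tested on simulated data. The number of arrays limits the precision. Members and lists were chosen with earlier results of these data known. Of the lists, genes at an unadjusted p under 0.05 and the extremes among genes well above background on every array of a group are named. ALAS2, HBA and red cell genes well above background on no array were named besides these, the other listed genes are given by counts, and marker relations, pairs of the other genes and the array median as scale were added after the values were seen. Other settings tried were quantile normalization, normexp (offset 50), the deposited matrix, a filter on dim probes, outlier spots kept, slide as a block, an intensity trend, the mean over a gene's probes and leaving out each cow.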

Additional observations from a re-analysis of the deposited data

Results flagged for a closer look

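In 3 of 28 groups of 6 cows (14 probes, 2 diets) the gap of 1 cow to its neighbor, as a share of the group's range, exceeded the 95% limit of Dixon's test. By chance 1.4 groups would show this, about 1 in 20. On the dimmest ALAD probe, A_73_P451091, CONT 5 was at -1.35, while the other CONT cows had -0.82 to -0.72. For UROS, REST 6 was at 2.24, and the next REST cow at 0.50. On the PPOX probe A_73_P092041, REST 5 was at 0.95 and the next REST cow at 0.65.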

How the results depend on the processing

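No probe of the array was called under any of the 20 alternatives run (limma, Westfall-Young or Benjamini-Hochberg), and at an unadjusted p under 0.05 there were 377 (normexp) to 1739 (without REST 6) probes beside 1143. The log2 FC of ALAD (0.73) was 0.64 to 0.82 with single cows left out and 0.64 (slide as a block) to 0.76 (mean over its probes) otherwise. It was positive under all 20, but as the groups did not overlap, leaving out a cow could not change its sign. The deposited matrix, outlier spots kept and the filter on dim probes gave the same value. The count of 20 thus supports nothing about ALAD. The count of heme genes higher in REST, 4 of 8, was 2 to 4 with single cows left out, 2 with the array median as the scale, where UROD and HMOX1 turned negative, 5 with slide as a block, where CPOX turned positive, and 3 of 7 with the filter on dim probes. Of the 20 alternatives, UROD changed sign under 5, HMOX1 under 7, CPOX under 2 and PPOX under 1 (without REST 1). FECH had no value under the filter on dim probes. The count of genes related to ALAD within the diets, 0 of 7, was 0 to 2 with single cows left out, 2 without REST 5, and 0 otherwise; the cause was not tested. No paired analysis was possible because different cows made up the groups, and the labels give no number that ties a CONT cow to a REST cow. Signal over background limits CPOX and FECH most.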
